A study of Homo sapiens with 6 samples.

Results

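The genes analysed here encode the machinery of DNA replication, in 48 members chosen by name from the 21293 genes of the deposited table. They cover origin licensing, the replicative helicase and its activators, the firing kinase, the sliding clamp and its loader, the polymerases and primase, Okazaki fragment maturation, single-strand binding, nucleotide supply, and chromatin assembly behind the fork. All 48 were found in the table and all 48 entered the test, which covered the 14395 genes whose mean over the 6 libraries reached 10 normalized counts. RNA-seq had been carried out on poly(A) RNA of H2087-LCC, a human lung adenocarcinoma (LUAD) cell population that was selected in mice for its capacity to stay dormant after dissemination, and that carries a RAS mutation. The cells were cultured for 3 days with SB505124 (SB), which blocks the kinase of the type I TGFβ receptor, for 3 days with TGFβ, or for 7 days with TGFβ, with 2 libraries for each condition. All 3 groups were the same cell population and there was neither an untreated group nor an SB group at 7 days, so that the length of TGFβ treatment and the time in culture cannot be told apart at 7 days. The study's legends call such libraries technical replicates, and no label ties them to separate cultures, so that the SDs and p-values given here may cover only technical spread.

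Replication origins are licensed when the origin recognition complex, with CDC6 and CDT1, loads the MCM2 to MCM7 ring onto DNA in the gap before S phase. The kinase CDC7 with its activator DBF4, and the proteins CDC45, MCM10 and GINS, then turn the loaded ring into an active helicase, behind which the polymerases copy both strands. Many of these genes are transcribed at the entry into S phase by E2F factors, which bind close to the start site, and they are expressed at a low level in cells that have left the cell cycle. TGFβ is a known inhibitor of epithelial cell proliferation. In a bulk measurement, fewer cells in S phase and less of an mRNA in each cycling cell cannot be told apart.

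The promoters of 6 members are shown because they hold an E2F-type match, or none, within the stretch drawn, and because they include members that fell and members that did not. Each line runs from 90 bases upstream of the RefSeq start site to 20 bases into the transcript, 5′ to 3′ on the strand of the gene, with matches to TTCGCGC or TTGGCGC on either strand in capitals. CDC6 lies at chr17:40287789-40287898 on the plus strand, ORC1 at chr1:52404404-52404513 on the minus strand, MCM2 at chr3:127598321-127598430 on the plus strand, MCM7 at chr7:100101378-100101487 on the minus strand, RPA1 at chr17:1829915-1830024 on the plus strand and RFC1 at chr4:39366343-39366452 on the minus strand, all in build GRCh38.p14.
CDC6: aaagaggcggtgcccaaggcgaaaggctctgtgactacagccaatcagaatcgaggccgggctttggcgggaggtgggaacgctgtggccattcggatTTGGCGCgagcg
ORC1: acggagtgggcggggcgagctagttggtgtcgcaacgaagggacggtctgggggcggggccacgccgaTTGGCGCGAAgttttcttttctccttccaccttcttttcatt
MCM2: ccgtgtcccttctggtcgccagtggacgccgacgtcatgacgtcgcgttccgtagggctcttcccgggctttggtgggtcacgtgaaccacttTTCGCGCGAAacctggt
MCM7: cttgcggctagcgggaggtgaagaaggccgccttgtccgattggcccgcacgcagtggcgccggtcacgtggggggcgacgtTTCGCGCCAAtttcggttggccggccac
RPA1: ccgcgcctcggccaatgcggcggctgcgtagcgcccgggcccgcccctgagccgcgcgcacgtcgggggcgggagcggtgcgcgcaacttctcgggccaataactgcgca
RFC1: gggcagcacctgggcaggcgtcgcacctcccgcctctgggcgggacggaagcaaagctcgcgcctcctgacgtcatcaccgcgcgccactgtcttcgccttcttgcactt

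CDC6, ORC1, MCM2 and MCM7 held a match within this window, whereas RPA1 and RFC1 held none. The fallers shown were chosen for holding a match, so this contrast was set by the choice. CDT1, TK1, POLD1, TYMS, RRM2 and MCM10, which also fell, held no match from 250 bases before to 50 bases after the start. In ORC1, MCM2 and MCM7 the capitals are overlapping matches on opposite strands. Over the window of 250 bases before to 50 bases after the start, RefSeq promoters were given for 42 of the 48 members, and 16 of these (38.1%) held at least 1 match. The share was 8.34% over the 10355 promoters of genes tested and 5.18% over all 27305 promoters. The CCAAT box was present on either strand in 23 of the 42 (54.8%), against 36.3% of the promoters of genes tested. It can overlap the second E2F form, whose reverse strand ends in CCAA. The TTTGAA element was present in 2 of the 42 (4.76%), against 9.74% of the promoters of genes tested. Outside the stretch drawn, RFC1 held E2F matches that begin 35 and 38 bases into the transcript, and RPA1 held 1 at position -169. At 7 days of TGFβ against SB, the median log2 fold change was -0.78 for the 16 members with a match and -0.81 for the 26 members without.

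Depth was only estimated: the spacing of low values placed the underlying assigned reads at about 32000000 to 40000000 per library. The normalized counts summed to 34306283 to 36340734 per library, but normalization brings such sums together, so they do not show depth. Library composition was uneven. Between the 2 libraries of a group, the log2 difference of the 48 members followed the GC content of the transcript. The correlation was r = -0.52 in SB, r = -0.88 after 3 days and r = 0.85 after 7 days of TGFβ (across 48 genes, which are not independent replicates). The same held over 10562 genes, with r = -0.20, -0.76 and 0.72. A loess correction for GC content and for the length of the transcript removed no call, and the calls that it added are named with the results. With it, the median log2 fold change over all genes tested was -0.06 at 7 days against SB and -0.05 at 7 days against 3 days. Without it these medians were -0.0008 and 0.02, so that a lower corrected value of a member can include this general shift. Over the 48 members, the fold changes between groups also followed GC content. The correlation was r = -0.55 at 3 days and -0.41 at 7 days against SB, and -0.13 at 7 days against 3 days. After the correction it was -0.43, -0.47 and -0.34, so that this relation remained among the members. Its part in the order of the falls was not tested. The 7 markers of the lung adenocarcinoma line were present in every library, although CDH1 was at 9 to 28 normalized counts with TGFβ. The leukocyte markers PTPRC and CD3E were at 0 to 4 and 0 to 1 normalized counts and HBB was at 0 in every library, whereas CD68 was at 4368 to 5113.

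**Figure D1:**
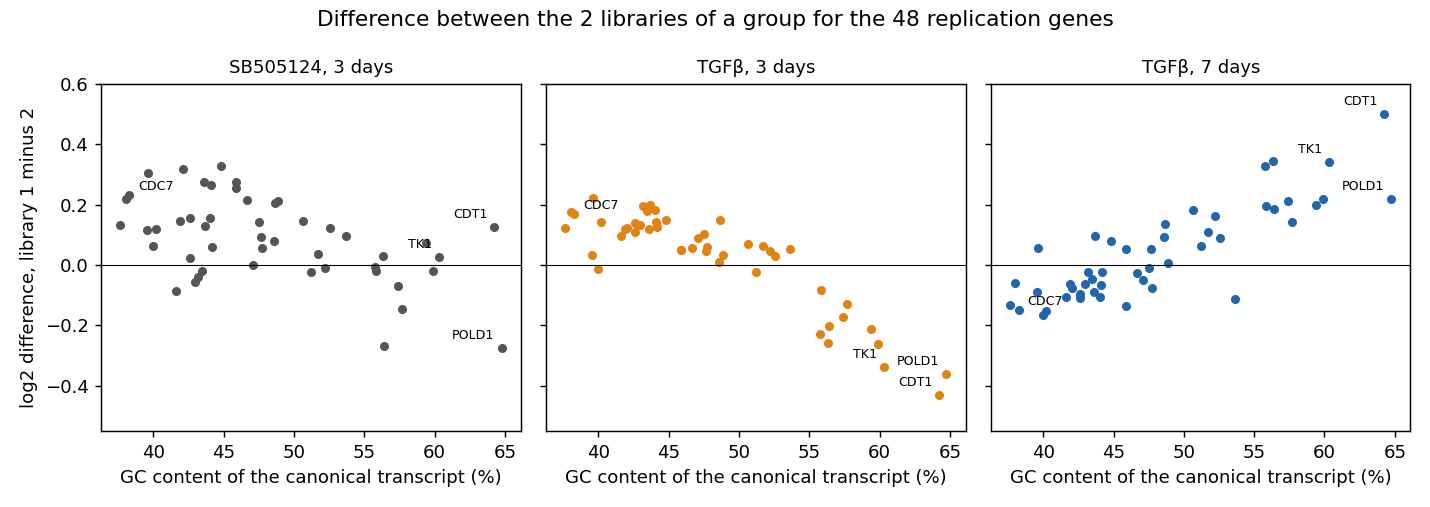
Each point is one of the 48 replication genes, placed by the GC content of its canonical transcript (%, x axis) and by the log2 difference between library 1 and library 2 of the same group (y axis), in a panel for each group. GC-rich genes such as POLD1 and CDT1 were lower in library 1 after 3 days of TGFβ and higher in library 1 after 7 days of TGFβ, with r = -0.88 and r = 0.85 over the 48 genes.

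The replication genes were lower with TGFβ, and lower at 7 days than at 3 days. Their summed normalized count was 196129 and 184016 in the SB libraries, 155938 and 151418 after 3 days of TGFβ, and 111385 and 109441 after 7 days. This sum was 0.558% and 0.536% of all normalized counts in SB, 0.429% and 0.422% after 3 days, and 0.311% and 0.304% after 7 days, and the groups did not overlap. No member rose in any comparison, nor under any scaling that was tried, whereas 14.9%, 27.7% and 17.0% of all genes tested were higher at 3 days against SB, at 7 days against SB and at 7 days against 3 days.

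**Figure D2:**
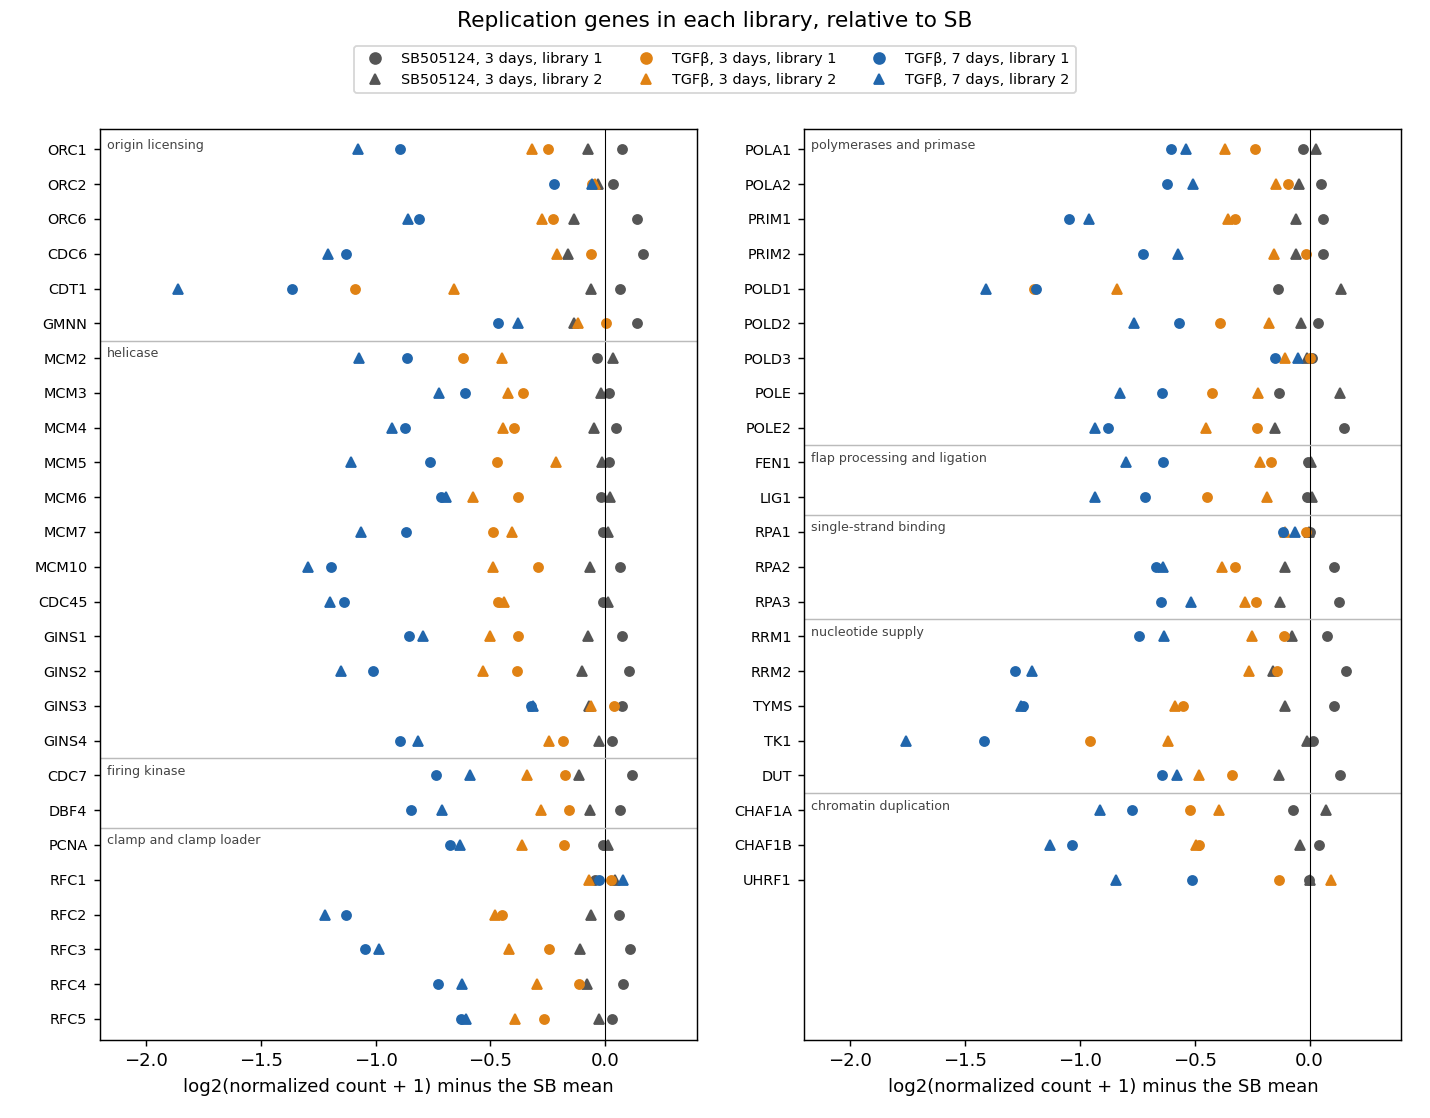
Each point is 1 library of 1 gene (y axis, the 48 members grouped by role), placed by log2(normalized count + 1) minus the gene's mean over the SB libraries (x axis), with colour for the group and a circle or triangle for library 1 or 2. The 7-day points lie left of both SB points for 47 genes, and those of RFC1, RPA1, POLD3 and ORC2 lie closest to 0.

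After 3 days of TGFβ, 24 of the 48 members were lower than in SB, against 14.0% of all genes tested (limma, Benjamini-Hochberg adjusted p under 0.05). The median log2 fold change of the members was -0.32, compared with -0.02 over all genes tested. Every member had a negative value, from -1.02 for POLD1 to -0.01 for GINS3, although UHRF1 turned to 0.011 and GINS3 to 0.014 with the correction for GC content. Both TGFβ libraries lay below both SB libraries for 40 members (83.3%), against 32.9% of all genes. The number of calls depended on the fit, with 10 without the filter on low values, 14 without a trend of the variance on the mean, and 33 with the GC correction. The shares of all genes called under these other fits were not computed. The 9 calls that the correction added were ORC1, MCM5, GINS4, CDC7, DBF4, POLD2, POLE2, LIG1 and RRM1. Without the filter the 3-day calls of CDT1, POLD1 and TK1 were among those lost (adjusted p = 0.129, 0.0581 and 0.0845).

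After 7 days of TGFβ, 44 of the 48 members (91.7%) were lower than in SB, against 26.9% of all genes tested. The median log2 fold change was -0.80, compared with 0.00 over all genes, and 13 members (27.1%) were past the threshold with a log2 fold change under -1, against 6.85% of all genes. Both 7-day libraries lay below both SB libraries for 47 members, against 38.6% of all genes. The members that did not pass the threshold were ORC2, RFC1, POLD3 and RPA1.

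Between 3 and 7 days of TGFβ, 41 members (85.4%) were lower at the later time, against 16.2% of all genes tested, with a median of -0.49. This comparison shares its 3-day libraries with the first one and its 7-day libraries with the second. For 21 members (43.8%) the level was lower at both steps, against 4.36% of all genes, and for another 20 only the later step passed the threshold. For MCM6, POLD1 and DUT the fall by 3 days passed the threshold and the later step did not, although with the GC correction the later step of MCM6 (-0.27, adjusted p = 0.00658) and of POLD1 (-0.47, adjusted p = 0.00692) also passed. The count at the later step fell to 25 without the second 7-day library, to 17 without the filter on low values and to 27 without the variance trend.

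**Figure D3:**
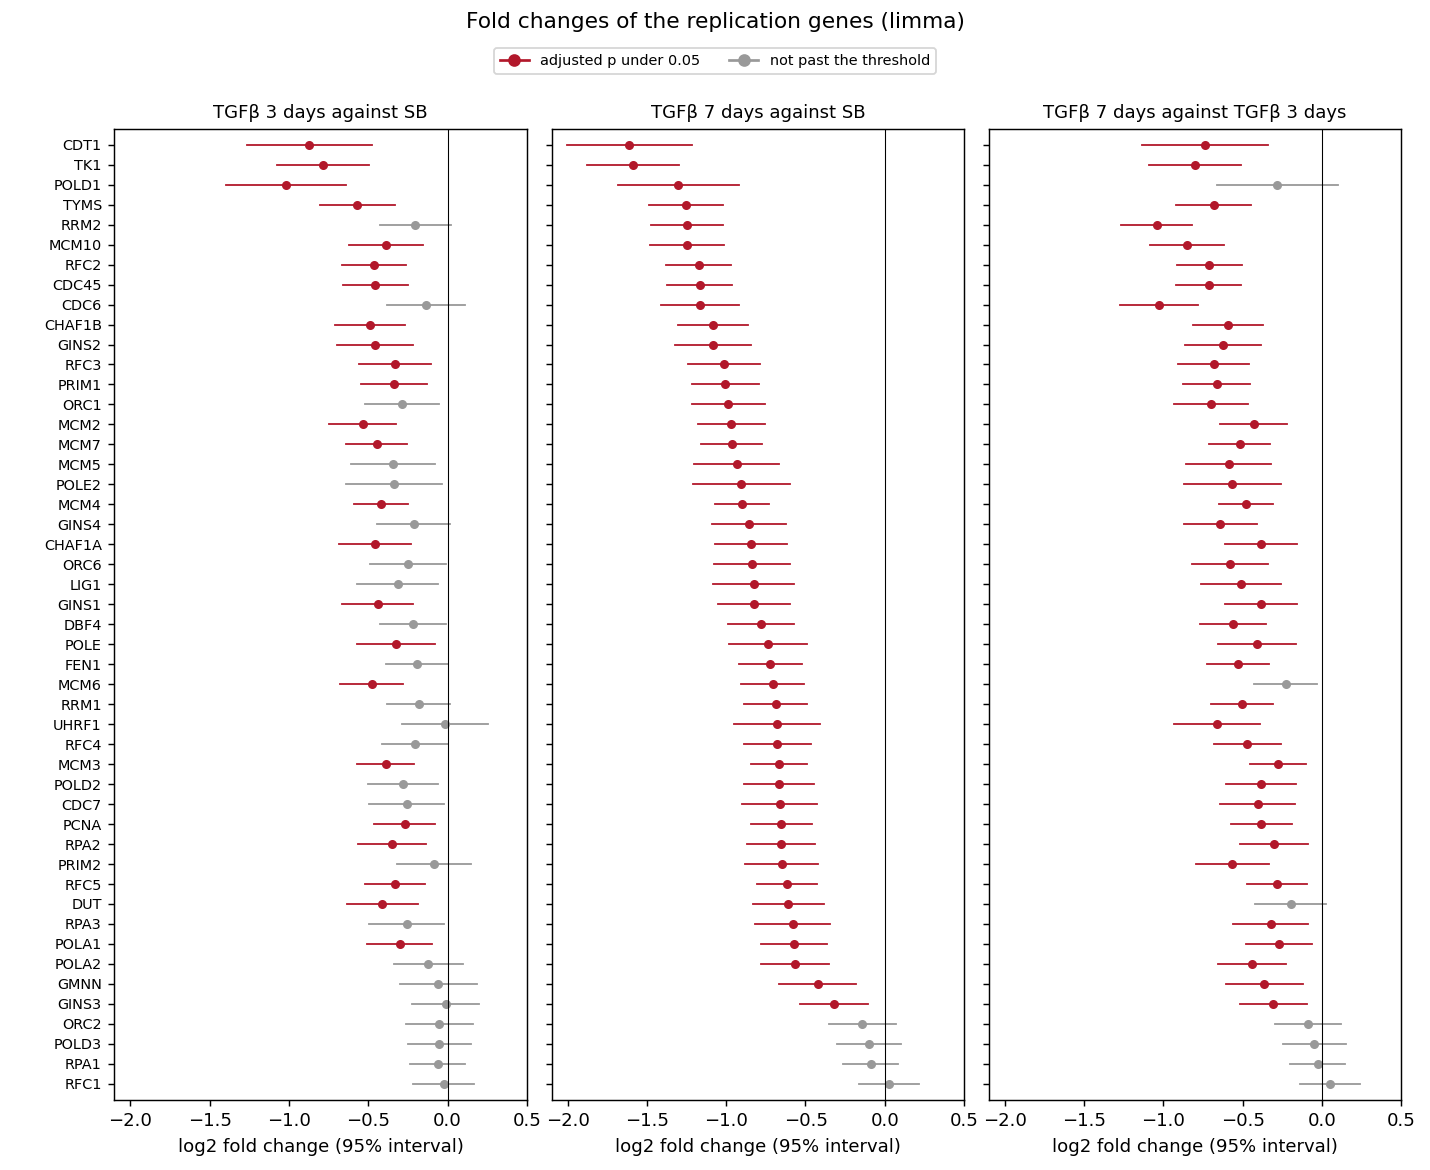
Log2 fold changes with their 95% intervals (x axis, limma) are drawn for the 48 members (y axis, ordered by the 7-day value against SB), in a panel for each of the 3 comparisons, in red where the adjusted p was under 0.05 and in grey otherwise. At 7 days against SB, 47 of the 48 values are below 0, from -1.61 for CDT1, and RFC1 alone is above 0 at 0.03.

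Among the 6 licensing genes, 1 was lower at 3 days and 5 at 7 days against SB, with medians of -0.19 and -0.91. Of all genes tested, 14.0% and 26.9% were lower, so that the 3-day count of this role was near the background. CDT1, which delivers the MCM ring to origins, had the lowest log2 fold change of the 48 members at 7 days against SB, except without the second 7-day library, where it was at -1.36 and TK1 at -1.42. Its normalized counts were 974 and 892 in SB, 438 and 591 after 3 days and 362 and 256 after 7 days of TGFβ, with no overlap between the groups. Relative to SB, the 3-day value was -0.87 on the log2 scale (adjusted p = 0.00348), and the 7-day value was -1.61 ± 0.18 (SE, adjusted p = 1.71e-05). CDC6, the ATPase that loads MCM with CDT1, moved late: it was at 4604 and 3667 in SB, 3938 and 3548 after 3 days, and 1880 and 1781 after 7 days. The SB and 3-day libraries overlapped, with a log2 fold change of -0.14 (adjusted p = 0.398), and the value was -1.17 at 7 days (adjusted p = 5.02e-06). ORC1, the subunit of the origin recognition complex that is regulated through the cell cycle, was at -0.99 and ORC6 at -0.84 at 7 days, both past the threshold. ORC2, a core subunit of that complex (GRCh37 chr2:201773700-201828403), was at 1905 and 1822 in SB, 1789 and 1805 after 3 days, and 1596 and 1788 after 7 days. Its log2 fold change at 7 days was -0.14 (95% interval -0.35 to 0.07, adjusted p = 0.234), and -0.25 with the GC correction, where it passed the threshold (adjusted p = 0.00942). GMNN encodes geminin, the inhibitor of CDT1, and fell less, with a 7-day log2 fold change of -0.42 (adjusted p = 0.00680). The GC correction gave -0.28 for GMNN and kept the call (adjusted p = 0.00869). Leaving out the first SB library also gave -0.28 (adjusted p = 0.0552), and leaving out the first 7-day library gave -0.38 (adjusted p = 0.0586). Per kilobase of transcript, the ratio of GMNN to CDT1 was 4.40 and 3.97 in the SB libraries, 8.91 and 6.08 after 3 days, and 7.79 and 11.7 after 7 days of TGFβ. Both TGFβ groups were above SB in this ratio and overlapped each other.

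All 12 helicase genes were lower at 7 days than in SB and 9 were at 3 days, against 26.9% and 14.0% of all genes tested. The medians were -0.92 and -0.43. MCM10, which helps to start the loaded helicase, was at 2175 and 1987 normalized counts in SB, 1698 and 1480 after 3 days and 907 and 848 after 7 days. Its groups did not overlap, and its 7-day log2 fold change, -1.24 ± 0.11 (adjusted p = 1.84e-06), was the largest among the helicase genes. At 3 days it was at -0.39, and this call was lost without the first SB library (-0.33, adjusted p = 0.0791) and without the second 3-day library (-0.29, adjusted p = 0.146). CDC45, which joins MCM and GINS in the active helicase, was at -0.45 after 3 days and -1.17 after 7 days, and passed the threshold in both. The genes MCM2 to MCM7, the subunits of the ring, kept close together: 5 were lower at 3 days, all 6 at 7 days, and the 7-day values ran from -0.67 for MCM3 to -0.97 for MCM2. MCM5 lay just outside the threshold at 3 days, at -0.34 (adjusted p = 0.0526), and passed it under 9 of the alternatives, among them the GC correction (-0.30, adjusted p = 0.0253). Per kilobase, MCM7 and MCM4 were the highest in SB at 4481 ± 45.3 and 4244 ± 196 normalized counts (SD, n = 2), followed by MCM3 (2736), MCM2 (2423), MCM6 (1276) and MCM5 (1132). After 7 days the order of the means was the same, at 2300 ± 220 for MCM7 and 2274 ± 60.4 for MCM4, which overlapped, down to 597 for MCM5.

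The GINS genes, whose products form the tetramer that links the helicase to polymerase ε, were less uniform. GINS2 was at -1.08, GINS4 at -0.86 and GINS1 at -0.82 at 7 days. GINS3 was at 1919 and 1737 normalized counts in SB, 1876 and 1749 after 3 days, and 1457 and 1468 after 7 days. Its SB and 3-day libraries overlapped, with a log2 fold change of -0.01 (adjusted p = 0.943), and it fell by 0.32 at 7 days (adjusted p = 0.0147). This was the smallest fall among the helicase genes, and it missed the threshold without the first SB library (-0.25, adjusted p = 0.0738), without the first 7-day library (-0.31, adjusted p = 0.0813) and without the second 7-day library (-0.33, adjusted p = 0.0760).

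Both genes of the firing kinase fell at 7 days. At 3 days neither passed the threshold as fitted, and both passed it with the GC correction (CDC7 -0.29, adjusted p = 0.0129, and DBF4 -0.27, adjusted p = 0.00603) and with equal library totals (adjusted p = 0.0411 and 0.0381). DBF4, the activating subunit, was at 3753 and 3427 normalized counts in SB, 3217 and 2955 after 3 days, and 1996 and 2190 after 7 days. CDC7, the catalytic subunit, was at 3113 and 2652 in SB, 2548 and 2268 after 3 days, and 1723 and 1912 after 7 days. Neither gene had overlapping groups. DBF4 was at -0.78 and CDC7 at -0.66 on the log2 scale after 7 days.

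The clamp PCNA, which tethers polymerases to DNA, had log2 fold changes of -0.27 at the earlier time (adjusted p = 0.0371) and -0.65 at the later. The 3-day call of PCNA was lost under 10 of the alternatives, and without the second 3-day library its value was -0.18 (adjusted p = 0.283). The loader that places it on primed DNA has a large subunit, RFC1, and the small subunits RFC2 to RFC5. RFC2 was at 3040 and 2790 normalized counts in SB, 2132 and 2090 after 3 days, and 1331 and 1251 after 7 days. These groups did not overlap, and RFC2 had the largest fall of the clamp and its loader, at -0.46 and -1.17 ± 0.09 (adjusted p = 9.67e-07 at 7 days). RFC3, RFC4 and RFC5 were at -1.01, -0.68 and -0.62 at 7 days, all past the threshold. RFC1 (GRCh37 chr4:39289076-39367995) was at 3493 and 3707 in SB, 3657 and 3425 after 3 days, and 3532 and 3801 after 7 days, with overlap between all groups. Its log2 fold change at 7 days was 0.03 (95% interval -0.17 to 0.22, adjusted p = 0.817), and this sign turned with equal library totals (-0.022) and with the GC correction (-0.10). Per kilobase, the ratio of RFC1 to the mean of RFC2 to RFC5 was 0.305 and 0.356 in SB, 0.392 and 0.405 after 3 days, and 0.572 and 0.595 after 7 days. The ratio was higher at each step with no overlap, and the difference between the subunits was not tested.

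**Figure D4:**
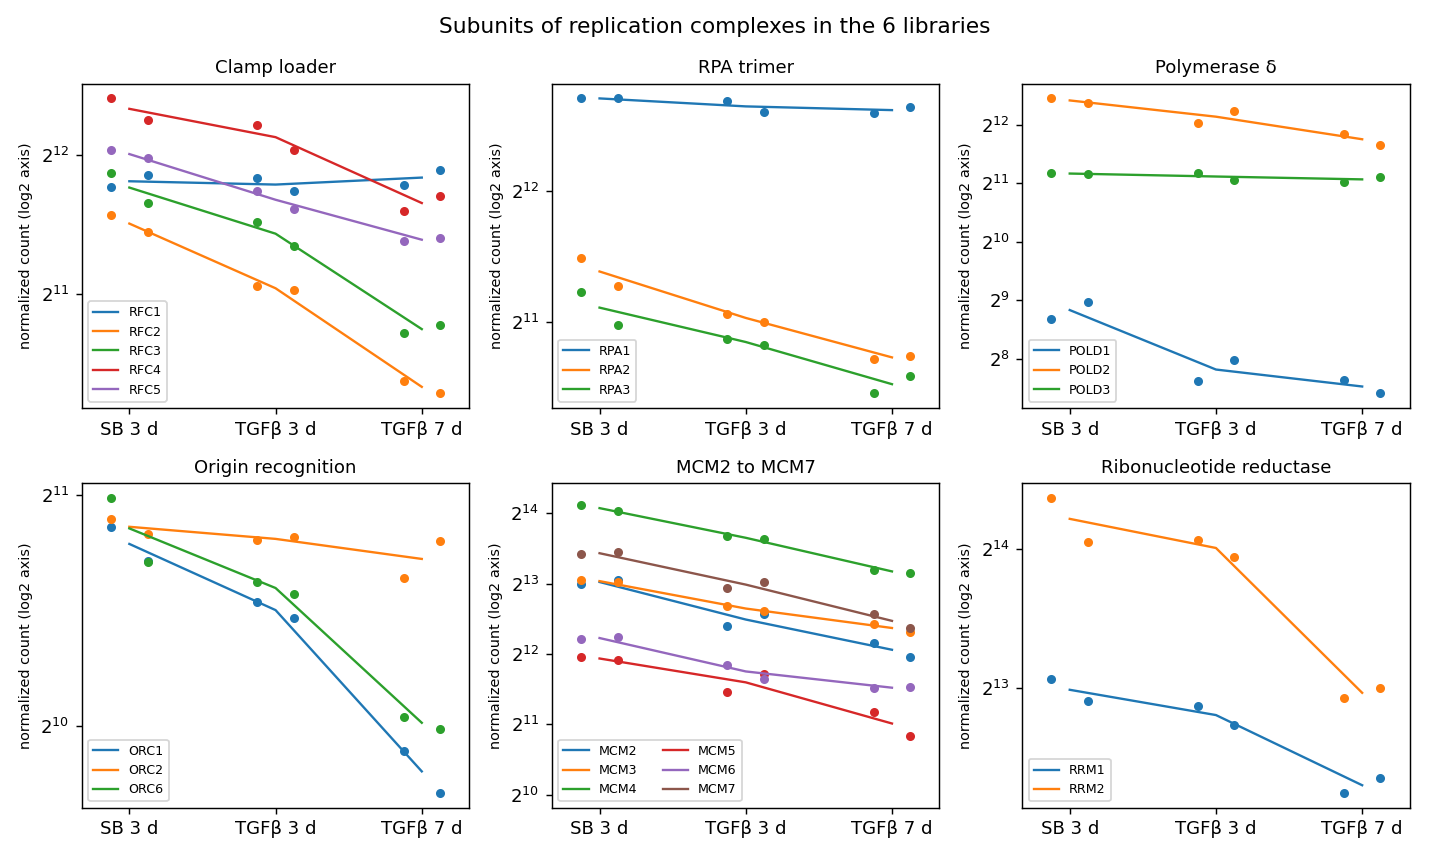
Normalized counts (log2 axis) of the subunits of 6 complexes are shown in SB, after 3 days and after 7 days of TGFβ; points are single libraries and lines join the group means. RFC1, RPA1, POLD3 and ORC2 run nearly flat above or among partners that decline, whereas MCM2 to MCM7 decline side by side.

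RPA coats single-stranded DNA as a trimer, of which the small subunits passed the threshold at 7 days and the large one did not. RPA2 was at 2872 and 2473 normalized counts in SB, 2129 and 2048 after 3 days, and 1678 and 1710 after 7 days, and its groups did not overlap. RPA2 was at -0.65 and RPA3 at -0.58 on the log2 scale at 7 days, both past the threshold. RPA1 (GRCh37 chr17:1732996-1803376) was at 6697 and 6694 in SB, 6616 and 6220 after 3 days, and 6185 and 6400 after 7 days. The 7-day libraries of RPA1 were below the SB libraries, and the log2 fold change was -0.09 (95% interval -0.26 to 0.08, adjusted p = 0.359). It was -0.22 with the GC correction, where the median over all genes tested was -0.06, and then passed the threshold (adjusted p = 0.00405). Per kilobase, the ratio of RPA1 to the mean of RPA2 and RPA3 was 0.921 and 1.08 in SB, 1.20 and 1.17 after 3 days, and 1.46 and 1.43 after 7 days.

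Of the 9 polymerase and primase genes, 4 were lower at 3 days and 8 at 7 days, against 14.0% and 26.9% of all genes tested. POLD1, the catalytic subunit of polymerase δ, was at 412 and 499 normalized counts in SB, 197 and 253 after 3 days, and 198 and 170 after 7 days. By 3 days it had the largest fall of all members, at -1.02 (adjusted p = 0.000933), and by 7 days it stood at -1.30 ± 0.17 (adjusted p = 6.49e-05). The 3-day and 7-day libraries of POLD1 overlapped, and the later step of -0.28 missed the threshold (adjusted p = 0.234), while with the GC correction it was -0.47 (adjusted p = 0.00692). POLD2, an accessory subunit, was at -0.67 at 7 days. POLD3, another accessory subunit of polymerase δ (GRCh37 chr11:74204896-74380162), was at 2317 and 2280 in SB, 2302 and 2136 after 3 days, and 2073 and 2217 after 7 days. Its log2 fold change at 7 days was -0.10 (95% interval -0.30 to 0.10, adjusted p = 0.371), and -0.17 with the GC correction, past the threshold (adjusted p = 0.0191). The primase subunits, which make the RNA primers, were also lower at 7 days, with a fold of 0.498 for PRIM1 and a log2 fold change of -0.65 for PRIM2. POLA1 and POLA2 of polymerase α were at -0.57 and -0.56, and POLE and POLE2 of polymerase ε, the leading-strand enzyme, were at -0.73 and -0.90, with POLE at -1.01 with the GC correction. All 6 of these passed the threshold at 7 days.

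Okazaki fragments are trimmed by the flap nuclease FEN1 and sealed by the ligase LIG1. LIG1 was at 1821 and 1846 normalized counts in SB, 1346 and 1614 after 3 days, and 1115 and 959 after 7 days. FEN1 was at 3558 and 3586 in SB, 3181 and 3077 after 3 days, and 2292 and 2049 after 7 days. The groups of both genes were separate, and LIG1 was at -0.83 and FEN1 at -0.72 on the log2 scale after 7 days, both past the threshold, while neither was at 3 days (-0.31, adjusted p = 0.0630, and -0.19, adjusted p = 0.135). LIG1 passed at 3 days with the GC correction (-0.25, adjusted p = 0.0144) and with equal library totals (adjusted p = 0.0407).

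The 5 genes of nucleotide supply had the lowest median of any role at 7 days, at -1.25. All 5 were lower than in SB, against 26.9% of all genes tested. TK1, the cytosolic thymidine kinase of S phase, was at 3599 and 3533 normalized counts in SB, 1838 and 2324 after 3 days, and 1333 and 1053 after 7 days. TK1 groups did not overlap, with log2 fold changes of -0.79 (adjusted p = 0.000853) by day 3 and -1.59 ± 0.13 (adjusted p = 1.43e-06) by day 7. TYMS, which makes thymidylate, was at -0.57 and -1.25. RRM1 and RRM2 encode the large and the small subunit of ribonucleotide reductase, which makes deoxyribonucleotides. RRM2, shown in each library after its values were seen, was at 21102 and 16950 normalized counts in SB, 17153 and 15745 after 3 days, and 7765 and 8191 after 7 days, and had the highest mean level per kilobase of all members in SB, at 5840 normalized counts. The first 2 groups of RRM2 overlapped at -0.20 (adjusted p = 0.166), and the later step was the largest of all members, at -1.04 (adjusted p = 4.3e-05). CDC6 was close behind at -1.03, and with the GC correction CDC6 was at -1.10 and RRM2 at -1.06. The ratio of RRM2 to RRM1 per kilobase was 2.39 and 2.13 in SB, 2.21 and 2.23 after 3 days, and 1.55 and 1.51 after 7 days. DUT, the dUTPase that keeps uracil out of DNA, was at 5429 and 4520 in SB, 3915 and 3545 after 3 days, and 3174 and 3320 after 7 days. DUT had the smallest fall of this role at 7 days, at -0.61 (adjusted p = 0.000362), and its 3-day call (-0.41) was lost without the first SB library (-0.28, adjusted p = 0.0653) and without the second 3-day library (-0.34, adjusted p = 0.0769).

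The chromatin genes also fell. CHAF1B, a subunit of the assembly factor that places histones on new DNA, was at 1631 and 1544 normalized counts in SB, 1135 and 1126 after 3 days, and 774 and 725 after 7 days. The groups were separate, with log2 fold changes of -0.49 and -1.08 ± 0.10 (adjusted p = 3.68e-06 at 7 days), and CHAF1A, its partner, was at -0.46 and -0.84. UHRF1, which recruits the maintenance methyltransferase to new DNA, was at 1711 and 1717 in SB, 1563 and 1831 after 3 days, and 1200 and 955 after 7 days. The 3-day libraries of UHRF1 lay on either side of SB (-0.02, adjusted p = 0.927), and it fell by 0.68 at 7 days (adjusted p = 0.000661).

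Of 35 further replication genes, 8 were lower and 1 was higher at 3 days against SB, against 14.0% and 14.9% of all genes tested. At 7 days against SB, 28 were lower and 1 was higher, against 26.9% and 27.7% of all genes tested, with a median of -0.54. The largest fall was that of TIPIN, a fork protection factor, with 2085 and 1711 normalized counts in SB, 1529 and 1479 after 3 days and 724 and 835 after 7 days (log2 fold change at 7 days -1.28). The gene that rose was POLD4, the smallest subunit of polymerase δ, with 1398 and 1654 in SB, 2174 and 2542 after 3 days, and 3489 and 3078 after 7 days. Its groups did not overlap, with log2 fold changes of 0.63 (adjusted p = 0.00164) by day 3 and 1.11 (adjusted p = 1e-05) by day 7.

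Among 12 other nucleotide supply genes, 7 were lower and 3 higher at 7 days, against 26.9% and 27.7% of all genes tested, so that the number that rose was near the background. SAMHD1, which degrades deoxyribonucleotides, had the largest fall, from 1369 and 1791 normalized counts in SB to 734 and 748 after 7 days (log2 fold change -1.08). The genes that rose included CDA, the cytidine deaminase of pyrimidine salvage, at 556 and 415 in SB, 1570 and 1795 after 3 days, and 1724 and 1538 after 7 days (log2 fold change 1.76 at 7 days). The others, named after their values were seen, were TK2, the mitochondrial thymidine kinase, at 1.47, and RRM2B, the reductase subunit that is used outside S phase, at 0.43. TK1 and RRM2, the S-phase counterparts of these, were at -1.59 and -1.25 in the same comparison.

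Of 13 genes for E2F factors and pocket proteins, 7 were lower and 3 higher at 7 days, against 26.9% and 27.7% of all genes tested. The number that rose was thus near the background. E2F2, an activating E2F, was at 437 and 558 normalized counts in SB, 191 and 175 after 3 days, and 95 and 103 after 7 days (log2 fold change at 7 days -2.31). E2F7, a repressor of E2F target genes, was at 6151 and 4634 in SB, 12633 and 11956 after 3 days, and 12023 and 11837 after 7 days (log2 fold change at 7 days 1.16). E2F2 declined at each step, and E2F7 was at its higher level by 3 days. E2F2 and E2F7 were named as the largest fall and rise of this list. At 7 days against SB, E2F8, also a repressor, was at -0.81 (adjusted p = 5.27e-05). Of the other activating factors, E2F1 was at -0.87 (adjusted p = 4.68e-05) and E2F3 at 0.05 (adjusted p = 0.616). All 8 proliferation markers were lower at 7 days and 5 were at 3 days, against 26.9% and 14.0% of all genes tested, with a 7-day median of -0.77. Of these, BUB1, a mitotic checkpoint kinase, had the largest fall, from 9353 and 8480 in SB to 5594 and 5215 after 3 days and 3605 and 3991 after 7 days (log2 fold change at 7 days -1.23). The part of the number of cycling cells in the fall of the replication genes was not tested.

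Some members overlap other genes or share sequence with them, and their values are uncertain to that extent. The paper counted only uniquely mapped reads. It does not name the gene annotation used for counting, so that some of the overlaps given here may not apply to these values. Exons of 14 members overlap a gene on the opposite strand and those of 6 a gene on the same strand in the GENCODE annotation of GRCh37, and the library kit does not mark strand. These include TYMS, which overlaps ENOSF1, and POLA2, PRIM2 and DUT. Pseudogenes bearing the gene's name exist for 12 members, with 8 for DUT and 3 each for RRM2, PCNA, RPA2 and DBF4.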

How the data were processed

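Poly(A) RNA of 6 libraries of H2087-LCC cells was sequenced, with 2 libraries in each of the 3 treatment groups given by the labels. Reads were aligned to hg19 with STAR and counted with HTSeq (0.6.1p1), and the deposited values are a score, namely the counts that the authors normalized with DESeq2 and rounded to whole numbers. A count model was therefore not used. Log2(value + 1) was tested, for genes averaging 10 or more, with limma 3.58.1 in R 4.3.3 (empirical Bayes with trend, group as the only term, all 6 libraries, 3 residual degrees of freedom). P-values were adjusted by Benjamini-Hochberg over all 14395 genes tested, with a threshold of 0.05, and the script was tested on simulated data. A fold change is on the log2(value + 1) scale. Depth could only be estimated, from the spacing of low values, so no counting interval is given.

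The 48 members and all lists were chosen with earlier results of these data known. In each role, the members with the largest and the smallest log2 fold change at 7 days against SB, and every member not past the threshold there, were given in each library. CDC6 and RRM2 were also given in each library, outside this rule. From the other lists the largest rise and fall past the threshold were named. Replicate numbers were taken from the titles. Same-numbered libraries did not deviate in the same direction across the groups, so no pairing was used. GC content, length and position come from GENCODE on GRCh37 (18435 of 21293 symbols matched), with the canonical transcript as the length. Promoters are from RefSeq on GRCh38.p14. Alternatives were other pseudocounts, filters, scalings and variance settings, the replicate block, leaving out each library and a loess correction (span 0.5) for GC content and length, the last chosen after seeing the data.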

Additional observations from a re-analysis of the deposited data

Results flagged for a closer look

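The level differed between 7 days and 3 days of TGFβ for 41 of the 48 replication genes (limma, 7 days against 3 days of TGFβ, adjusted p under 0.05), and each of these is a decrease. As SB was sampled only at 3 days, this compares the TGFβ groups with each other and not their responses against SB. All values here are log2 differences of 7 days minus 3 days, with 2 libraries each. Among licensing genes it was -0.70 for ORC1, -0.58 for ORC6, -1.03 for CDC6, -0.74 for CDT1 and -0.36 for GMNN. Among helicase genes it was -0.43 for MCM2, -0.28 for MCM3, -0.48 for MCM4, -0.59 for MCM5, -0.52 for MCM7, -0.85 for MCM10, -0.71 for CDC45, -0.38 for GINS1, -0.62 for GINS2, -0.31 for GINS3 and -0.64 for GINS4. For the firing kinase it was -0.41 for CDC7 and -0.56 for DBF4. For the clamp and its loader it was -0.38 for PCNA, -0.71 for RFC2, -0.68 for RFC3, -0.47 for RFC4 and -0.29 for RFC5. Among polymerase and primase genes it was -0.27 for POLA1, -0.44 for POLA2, -0.67 for PRIM1, -0.57 for PRIM2, -0.39 for POLD2, -0.41 for POLE and -0.57 for POLE2. For Okazaki fragment maturation it was -0.53 for FEN1 and -0.51 for LIG1. For RPA it was -0.30 for RPA2 and -0.32 for RPA3. Among nucleotide supply genes it was -0.51 for RRM1, -1.04 for RRM2, -0.68 for TYMS and -0.80 for TK1. Among chromatin genes it was -0.39 for CHAF1A, -0.59 for CHAF1B and -0.66 for UHRF1. Over all genes tested 16.2% were lower in the same comparison. Without the second 7-day library 25 members remained past the threshold, and time in culture cannot be told apart from the length of treatment.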

How the results depend on the processing

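The median log2 fold change of the 48 members kept its sign and moved by less than the spread between replicates under all alternatives, from -0.37 to -0.26 at 3 days against SB, -0.82 to -0.74 at 7 days against SB and -0.50 to -0.45 at 7 days against 3 days when single libraries were left out. The number of members lower ranged from 17 to 26, 42 to 44 and 25 to 41 in the same leave-one-out fits. At 3 days against SB it was 14 without the variance trend and 10 without the filter on low values. At 7 days against 3 days it was 27, 17 and, without the second 7-day library, 25. Equal library totals gave 34, 44 and 41, and the correction for GC content and length gave 33, 47 and 43 and kept every call. The shares of all genes called were not computed for any of the alternatives, so that these counts have no background beside them. Past the threshold under every alternative were 7 members at 3 days, 42 at 7 days and 16 at 7 days against 3 days. The cause of the losses was not tested.

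The replicate numbers did not pair the libraries, since the within-group differences correlated at 0.21 (SB and 3 days), -0.13 (SB and 7 days) and -0.65 (3 and 7 days) over 11389 genes. The last value is a deviation in opposite directions, which a block on the replicate number cannot absorb. The relation to GC content was also opposite in these groups (r = -0.76 and 0.72), and a link between them was not tested. With the replicate block, 23, 44 and 37 members were lower, with 22, 44 and 37 of them shared with the fit without it.

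Signs turned for values near 0, none of which was called. At 3 days against SB, leaving out single libraries gave -0.30 to 0.028 for CDC6, -0.083 to 0.060 for GINS3, -0.20 to 0.080 for GMNN, -0.11 to 0.0022 for POLD3, -0.071 to 0.023 for RFC1 and -0.13 to 0.095 for UHRF1. At 7 days against SB it gave -0.027 to 0.079 for RFC1. At 7 days against 3 days it gave -0.10 to 0.0053 for POLD3, -0.0029 to 0.10 for RFC1 and -0.073 to 0.017 for RPA1. The correction for GC content gave 0.014 for GINS3 and 0.011 for UHRF1 at 3 days, and -0.10 and -0.011 for RFC1 at 7 days against SB and against 3 days. With equal library totals RFC1 was at -0.022 at 7 days against SB. Depth was only estimated, and its part in the precision was not tested.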
